A study of Homo sapiens with 12 samples.

Results

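293T cells that received a vector coding for an artificial CU1276 hairpin were compared with 293T cells that received the vector without an insert. The comparison takes the 8 arrays whose titles name the hairpin vector (4 arrays) or the empty vector (4 arrays), of 12 arrays in all. CU1276 is a small RNA that, as the labels describe it, is cut from a glycine tRNA, and the remaining 4 arrays come from cells given a vector with the gene of that tRNA. 293T is a transformed human embryonic kidney line that carries SV40 large T antigen, which binds p53 and the RB proteins, and no group was free of it. Every group was transfected transiently with PEI (polyethylenimine) in the same medium and harvested after 48 hours, and biotin-labelled cRNA was made from 12 micrograms of total RNA. The labels call the samples biological replicates and say nothing of the promoter or of the share of cells transfected, so p-values measure the spread between these samples. In such bulk RNA a change in few cells and a smaller change in many cannot be told apart.

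Small hairpin RNAs enter the pathway that makes microRNAs. In the nucleus DROSHA and its partner DGCR8 form the Microprocessor, which cuts stem-loops out of long transcripts, Exportin-5 carries them to the cytoplasm, DICER1 trims them, and an Argonaute protein holds the guide strand, whose seed pairs with messenger RNAs and lowers their level or translation. The DGCR8 transcript itself contains stem-loops that the Microprocessor can cut. The study is known to link CU1276 to RPA1, the large subunit of the trimeric replication protein A, which covers single-stranded DNA in replication and repair. The level of CU1276 itself was not analysed here.

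The probe set with the smallest p in the comparison is annotated to both DGCR8 and MIR1306, a microRNA gene that lies inside DGCR8. In RefSeq (GRCh38.p14) DGCR8 runs from 20080241 to 20111872 on chromosome 22, plus strand, over 31632 bases, and the mature arms of MIR1306 fall within it. They lie at chr22:20086072-20086093 for the 5p arm and chr22:20086112-20086129 for the 3p arm. They are shown because the array's annotation cannot separate the messenger from the microRNA gene, with the seed (bases 2 to 8) in capitals.
hsa-miR-1306-5p: cCACCUCCccugcaaacgucca
hsa-miR-1306-3p: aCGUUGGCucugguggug
The arms have different seeds. They are 22 and 18 bases long, and a probe set summarises long labelled fragments, so its signal is not a level of either mature arm.

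The values are MAS5 signals, a linear brightness per probe set, and a log2 fold change is hairpin over empty vector, with its limma standard error after ±. The median signal was 75.9 to 104 in the hairpin arrays and 83.2 to 94.98 in the empty vector arrays. Across probe sets, which are not independent, log2 signals correlated at 0.899 to 0.916 between arrays of 1 group and at 0.896 to 0.917 between arrays of the 2 groups. The signal of Bacillus control RNAs averaged 2047 to 2062 on arrays numbered 1, 371 to 431 on arrays numbered 2 and 23.0 to 27.6 on arrays numbered 3 or 4, in both groups alike. The 3' to 5' ratio of GAPDH was 1.33 ± 0.125 in the empty vector arrays and 1.35 ± 0.223 in the hairpin arrays (SD, n = 4). Of 8 markers of 293T cells on the array 7 passed the filter on dim signals, among them the neurofilaments NEFM and NEFL and the kidney factors SALL1, EYA1, WT1 and PAX2, and LHX1 did not. Their summed signal was 10122 to 11384 with the empty vector and 10560 to 12010 with the hairpin vector. Of 27 markers of other cell types 15 passed, with sums of 2108 to 3245 and 2127 to 3186.

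No transcript passed the test after adjustment in the fit of group means without a block. Fitted with limma over 32768 probe sets, 0 passed at a Benjamini-Hochberg adjusted p of 0.05 (0%, smallest adjusted p 0.335). At an unadjusted p under 0.05 there were 468 higher (1.43%) and 399 lower (1.22%), or, with the brightest probe set standing for each of 13952 genes, 208 genes higher (1.49%) and 174 lower (1.25%). All 4 hairpin arrays lay above all 4 empty vector arrays for 155 genes (1.11%) and below them for 170 genes (1.22%). Every gene below is therefore given as values: the limma adjusted p was 0.335 for the brightest probe set of DGCR8 with MIR1306, 0.835 for the brighter probe set of MAP2K4, and it rounded to 1 for every other probe set named in the comparison with the empty vector. The replicate numbers were taken to pair the samples. The standard errors and intervals given per gene come from the fit without a block and take no account of that pairing. With the number as a block limma again called 0 probe sets (smallest adjusted p 0.0795), and 1771 had an unadjusted p under 0.05 (5.4%). With the level of the control RNAs as a block it called 3 (0.00916%), the brighter MAP2K4 probe set and the 2 brightest of DGCR8 with MIR1306, at an adjusted p of 0.0482 each.

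The size of difference that could be measured depended on brightness. Probe sets were divided into 3 equal groups by signal. In the bright group (signal 696 and above) the median standard error was 0.12 on the log2 scale, and the 95% interval lay within a 1.5-fold change in either direction for 92.1% of them. In the middle group 89.8% of intervals lay within a 2-fold change, and in the dim group 20.0%. A difference of 2-fold or more was seen for 0 bright probe sets, 16 of the middle group and 849 dim ones.

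**Figure D1:**
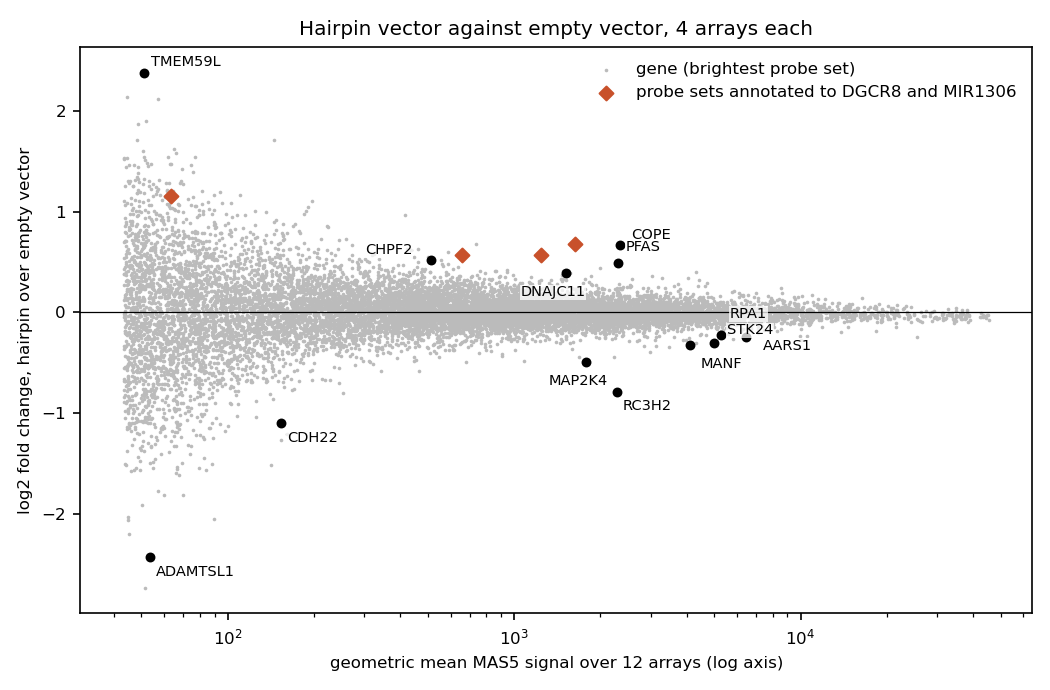
Each grey point is a gene, with the geometric mean MAS5 signal of its brightest probe set over 12 arrays on a log horizontal axis and the log2 fold change of hairpin over empty vector on the vertical axis; red diamonds are the 4 probe sets annotated to DGCR8 and MIR1306 and black points are genes named in the text. The spread narrows from left to right, and the 3 brighter diamonds stand at 0.57 to 0.68.

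Signal of DGCR8 with MIR1306 was higher in the hairpin vector cells in 4 of 4 probe sets, by 1.49 to 1.6-fold in the 3 brighter ones. In 2 of these, the brightest and the third, the hairpin arrays also lay above all 4 tRNA vector arrays. The other genes of microRNA processing and silencing showed no common direction. DROSHA, the partner of DGCR8 in the Microprocessor, differed by -0.04 ± 0.11.

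The brightest of these probe sets read 1215, 1457, 1533 and 1352 in the empty vector arrays 1 to 4 and 2402, 2107, 1951 and 2436 in the hairpin arrays. The groups did not overlap, and the lowest hairpin array stood above the highest empty vector array by more than the whole range of the empty vector arrays. The log2 fold change was 0.68 ± 0.10 (95% interval 0.46 to 0.90), with same-number differences of 0.98, 0.53, 0.35 and 0.85. The next brightest read 839.9, 1024, 1303 and 1097 against 1265, 1549, 1738 and 1768, where hairpin array 1 fell just below empty vector array 3, and the difference was 0.57 ± 0.15. The third read 464.6, 624.7, 537.1 and 694.1 against 770.9, 735.0, 940.9 and 988.9, a difference of 0.57 ± 0.14 with no overlap. The dim one read 16.1, 30.7, 74.0 and 110.3 against 23.6, 159, 137 and 192, and its groups overlapped widely (1.15 ± 0.80). Each of the 4 was higher in 4 of 4 same-number pairs, a sign pattern that 982 of the 13952 genes shared upwards and 969 downwards. The probe sets report 1 annotation and are not independent of each other.

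Against the tRNA vector, whose arrays gave 1424 ± 86.9 (SD, n = 4) for the brightest probe set, the hairpin vector stood at 0.64 ± 0.10. In limma the adjusted p of that difference was 0.236, and 0.0442 with the replicate number as a block. The difference was 0.44 ± 0.15 for the next brightest and 0.55 ± 0.14 for the third, with limma adjusted p that rounded to 1, and of 0.153 and 0.227 with the block. Both differences use the same hairpin arrays.

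Other loci that hold a microRNA within a gene were looked at after these values had been seen. Of 184 probe sets annotated to a microRNA gene together with another gene, 113 were higher and 71 lower, with a median of 0.04. Over all 32768 tested probe sets 16633 were higher and 16135 lower, with a median of 0.003. Without the 4 of DGCR8, 109 of 180 were higher, the median was 0.04, and 1 was higher and 1 lower at an unadjusted limma p under 0.05, against 1.43% and 1.22% of all probe sets. The higher one, annotated to MIR1282, HYPK and SERF2, read 3532, 3433, 4296 and 3477 with the empty vector and 4212, 4712, 4139 and 4562 with the hairpin vector (0.26 ± 0.084). Its groups overlapped through empty vector array 3, and with the tRNA vector it stood at 4427 ± 161. The 21 probe sets of transcripts named as microRNA hosts had a median of 0.02, with 12 higher and 9 lower and 0 at an unadjusted limma p under 0.05.

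Of 20 measured genes of microRNA processing and silencing 11 were higher and 9 lower, with a median of 0.04 beside 0.004 over all genes, and 0 had an unadjusted limma p under 0.05. XPO5 (Exportin-5), the export receptor of these hairpins, differed by -0.10 ± 0.092, and DICER1 by 0.05 ± 0.089. Among the Argonautes AGO1 stood at 0.04 ± 0.11, AGO2 at -0.01 ± 0.14, AGO3 at -0.04 ± 0.12 and AGO4 at 0.06 ± 0.13. The smallest p belonged to the DICER1 partners: TARBP2 was at 0.21 ± 0.11 and PRKRA at -0.12 ± 0.070, with overlapping arrays for both. No measured member of the list differed by more than 0.21 in either direction, MOV10, a helicase bound to Argonautes, being the highest (0.21 ± 0.13).

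RPA1 was lower in its brightest probe set by 0.22 on the log2 scale, or to 0.857 of the empty vector level, without passing the test. It read 6297, 5662, 5898 and 5587 with the empty vector and 5679, 4587, 4940 and 4922 with the hairpin vector. Hairpin array 1 lay above 2 of the empty vector arrays, while the other 3 hairpin arrays lay below all of them. The difference was -0.22 ± 0.082 (95% interval -0.40 to -0.05), the limma adjusted p 0.9999, and the exact permutation test of the 8 arrays gave p = 0.0857, two-sided, or 0.257 adjusted over the 3 RPA1 probe sets (smallest possible p 0.0286). That test takes no account of the pairing: the same-number differences were -0.15, -0.30, -0.26 and -0.18, all of 1 sign, and with the replicate number as a block limma gave an unadjusted p of 0.00181 and an adjusted p of 0.833. The next brightest probe set read 3299, 4251, 4970 and 4784 against 3352, 3477, 4155 and 4040 (-0.19 ± 0.13, exact permutation p = 0.286), with much overlap. A dim one showed no shift but a wide error (0.00 ± 0.25, exact permutation p = 1).

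The partners of RPA1 in the trimer stood closer to the empty vector. RPA2 read 5415, 6805, 5586 and 6151 against 6154, 5778, 5579 and 6015 (-0.02 ± 0.081). RPA3 read 14210, 10840, 11290 and 11336 against 12939, 10632, 11040 and 11231 (-0.05 ± 0.089), and array 1 was the highest in both groups. Of 10 measured genes for RPA and other single-stranded DNA binding proteins 6 were higher and 4 lower, with a median of 0.03, and RPA1 was the 1 member with an unadjusted limma p under 0.05. NABP1, a sensor of single-stranded DNA in the INTS3 complex, had the next smallest p (0.31 ± 0.20). A sign turned in the dim RPA1 probe set, RPA2 and RPA3 under other scalings or without single arrays, and did not turn in the brighter RPA1 probe sets.

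**Figure D2:**
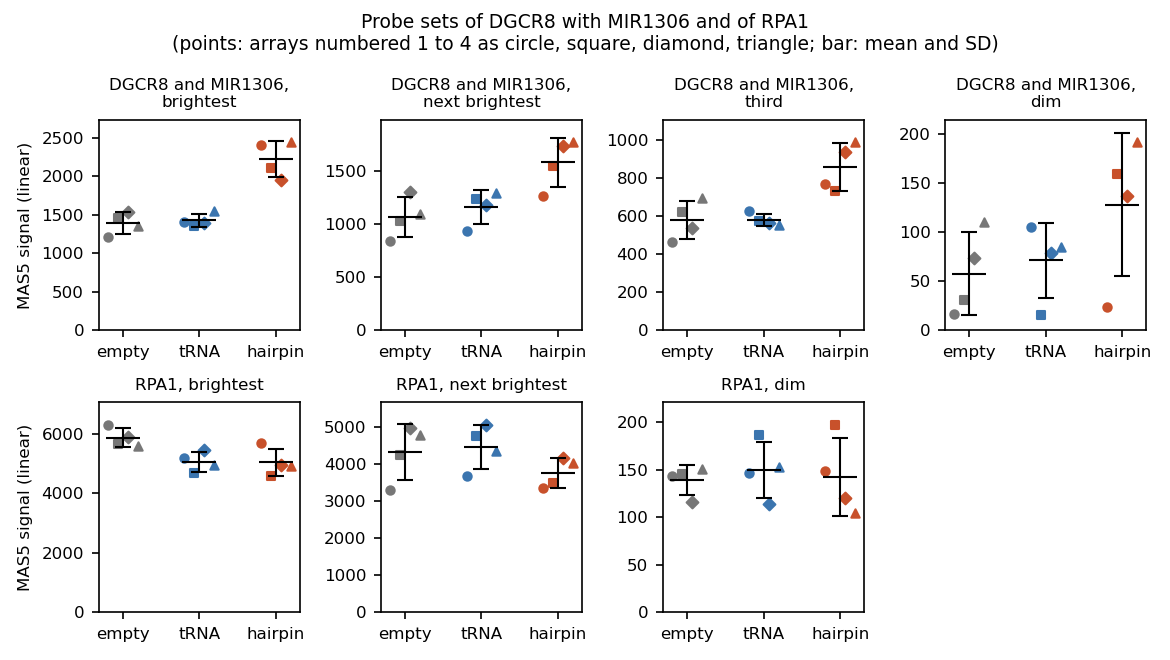
MAS5 signal on linear axes from 0, by vector group, for the 4 probe sets annotated to DGCR8 and MIR1306 (upper panels) and the 3 probe sets of RPA1 (lower panels); points are single arrays, the long bar is the mean and the whiskers are the SD (n = 4). For the brightest DGCR8 probe set the 4 hairpin arrays, from 1951 to 2436, lie above all 4 empty vector arrays, while for RPA1 the groups overlap.

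The stress-activated MAP kinase pathway held the gene of smallest p among those with a single annotation, MAP2K4. It codes for the kinase MKK4, which phosphorylates JNK and p38, and was lower in both of its probe sets. STK24, a Ste20-type kinase known as MST3, was also lower in both. The list around them did not lean to 1 side.

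The brighter MAP2K4 probe set read 2073, 2087, 1878 and 1918 with the empty vector and 1557, 1464, 1311 and 1346 with the hairpin vector. All 4 hairpin arrays lay below all 4 empty vector arrays, and the same-number differences of -0.41, -0.51, -0.52 and -0.51 were close to each other. The difference was -0.49 ± 0.086 (95% interval -0.67 to -0.30, limma adjusted p 0.835, or 0.0795 with the replicate number as a block), a fold of 0.713. With the tRNA vector the signal was 1998 ± 104 (SD, n = 4), so the hairpin vector differed from it by -0.50 ± 0.086 (limma adjusted p 0.363, and 0.0442 with the block). The dimmer probe set read 1027, 1446, 1216 and 1194 against 699.7, 1057, 930.8 and 960.6 (-0.43 ± 0.19), where only hairpin array 2 reached the range of the empty vector.

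STK24 read 5137, 5523, 5172 and 5764 against 4614, 4421, 4235 and 4256 in its brighter probe set, again with no overlap, a difference of -0.30 ± 0.074. Its dimmer probe set read 2248, 2425, 2780 and 2447 against 1927, 2014, 2254 and 2092 (-0.25 ± 0.12), and here hairpin array 3 lay just above empty vector array 1. Of 7011 genes with 2 or more measured probe sets, 2700 had all of them on 1 side. In 3 lower genes (0.0428%) and 1 higher gene (0.0143%) all probe sets also had an unadjusted limma p under 0.05. MAP2K4, STK24 and the blood group transferase ABO were the lower ones, and ABO was dim (75.01, 20.7, 58.6 and 74.7 with the hairpin vector against 166, 175, 105 and 167).

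Of 35 measured genes of the pathway 19 were higher and 16 lower (median 0.01). At an unadjusted limma p under 0.05 there were 2 lower, MAP2K4 and STK24, and 1 higher, beside 1.25% and 1.49% of all genes. The higher one was MAP3K3, an upstream kinase (0.28 ± 0.098). JNK1, a target of MKK4 coded by MAPK8, stood at -0.23 ± 0.12 and JNK2 (MAPK9) at -0.07 ± 0.071. The list's median took the other sign without empty vector array 3 (-0.03) and without the arrays numbered 1 (-0.03).

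MANF, a protein of the endoplasmic reticulum that is secreted when protein folding is disturbed, was lower with the hairpin vector, with little spread between arrays. It read 4262, 4467, 4215 and 4360 with the empty vector and 3495, 3433, 3440 and 3480 with the hairpin vector, and the groups were far apart. The hairpin mean was 3462 ± 30.2 and the empty vector mean 4326 ± 112 (SD, n = 4), a difference of -0.32 ± 0.067. Against the tRNA vector it was -0.42 ± 0.067 (limma adjusted p 0.236, and 0.0442 with the replicate number as a block). Other genes of protein folding in this compartment showed no common direction. Of 30 measured genes 16 were higher and 14 lower (median 0.03), and the chaperone HSPA5 (BiP), a main target of the unfolded protein response, stood at 0.04 ± 0.090. ATF6, a membrane-bound factor of that response, was the other member with an unadjusted limma p under 0.05 (-0.48 ± 0.21), and its arrays of 1143, 1889, 1202 and 894.9 against 1121, 781.3, 904.7 and 770.9 overlapped. Without empty vector array 2, its highest, the difference was -0.28.

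Among the enzymes that load tRNAs with amino acids, AARS1 (alanine) and CARS1 (cysteine) were lower, with no overlap between groups. AARS1 read 6978, 7220, 6445 and 6618 against 5975, 5790, 5736 and 5450 (-0.25 ± 0.066). CARS1 read 11620, 11164, 10549 and 10909 against 8792, 8132, 9477 and 10246 (-0.28 ± 0.075), and 3 of its 3 other probe sets shared the direction. The hairpin arrays of CARS1 were spread more widely than those of AARS1, with array 4 close to the empty vector. For AARS1 the tRNA vector gave 6914 ± 249 (SD, n = 4), the level of the empty vector, and for CARS1 10011 ± 334, between the groups. The charging enzyme for glycine, GARS1, was at -0.03 ± 0.087.

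Of 18 measured members of the synthetase list 14 were lower, with a median of -0.05 that ran from -0.10 without hairpin array 1 to -0.02 without empty vector array 1. The same-number medians of the list were -0.11, -0.06, 0.01 and -0.05. In the machinery that transcribes and matures tRNAs, 21 of 41 genes were higher and 20 lower (median 0.001), and POP5, a protein of RNase P, which trims the 5' end of tRNAs, was the 1 member with an unadjusted limma p under 0.05 (-0.27 ± 0.11). POLR3F, a subunit of RNA polymerase III, was at -0.28 ± 0.16.

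**Figure D3:**
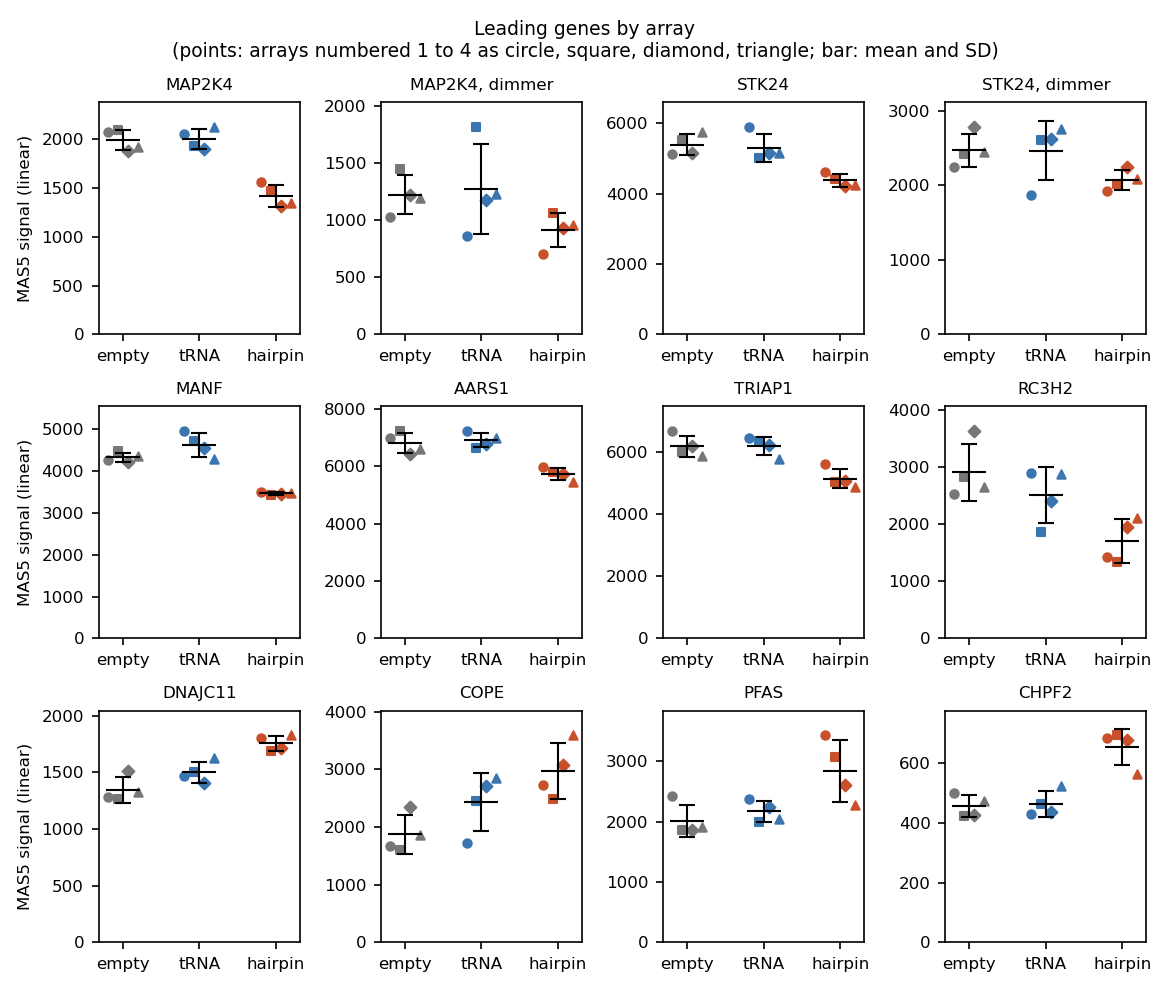
MAS5 signal on linear axes from 0 for the probe sets of 10 named genes, by vector group; points are single arrays, the long bar is the mean and the whiskers are the SD (n = 4). The hairpin arrays of MAP2K4 (1311 to 1557) and MANF (3433 to 3495) lie below all arrays of both other groups, and those of DNAJC11 (1689 to 1826) above all of them.

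The genes of DNA replication, damage signalling and cell division gave few values apart from the empty vector. TRIAP1, a small p53 target of mitochondrial lipid transport, was lower: it read 6657, 6003, 6180 and 5863 with the empty vector and 5598, 5030, 5056 and 4877 with the hairpin vector, with no overlap and a difference of -0.27 ± 0.072. Its same-number differences lay between -0.25 and -0.29, and the tRNA vector gave 6192 ± 297 (SD, n = 4). CDKN1A (p21), a well known target of p53, stood at 0.02 ± 0.12 and MDM2 at 0.10 ± 0.086. SESN2, a sestrin that is also a target of the integrated stress response, read 2520, 2064, 2854 and 2578 against 2785, 2830, 3194 and 3150 (0.26 ± 0.11), where empty vector array 3 lay above hairpin arrays 1 and 2, and the difference was 0.17 without empty vector array 2. GDF15, a secreted stress factor, was at 0.31 ± 0.14 and SPATA18, of mitochondrial quality control, at -0.31 ± 0.15. Of 26 measured p53 targets 17 were higher and 9 lower (14 without empty vector array 2), with a median of 0.03. On either side 2 had an unadjusted limma p under 0.05, beside 1.49% higher and 1.25% lower of all genes.

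Of 33 genes of DNA damage signalling 10 were higher and 23 lower, with a median of -0.01, and without empty vector array 1 the number lower was 14. The damage kinases ATM and ATR stood at 0.07 ± 0.14 and -0.01 ± 0.11, and the checkpoint kinase CHEK1 at -0.17 ± 0.098. CDC25A, a phosphatase that drives entry into S phase, was higher (8517, 6589, 8842 and 8427 against 9272, 8962, 9928 and 9983, 0.24 ± 0.096), with no overlap, though 0 of its 2 other probe sets shared the direction and the difference was 0.15 without empty vector array 2. RAD52, of homologous recombination, was at 0.30 ± 0.16, with 0 of 2 others sharing the direction. ORC5, of the origin recognition complex, was lower without overlap (4209, 3960, 3759 and 3766 against 3525, 3070, 3320 and 3322, -0.25 ± 0.074), and 1 of its 2 other probe sets shared the direction. It was the 1 member of 44 replication genes with an unadjusted limma p under 0.05, where 23 were higher and 21 lower, and POLD1, the catalytic subunit of DNA polymerase delta, had the next smallest p (0.35 ± 0.19). The mitotic kinase AURKA was lower without overlap (5230, 5240, 4506 and 5289 against 4302, 4482, 4090 and 4486, -0.22 ± 0.087), in a list of cell cycle genes with 13 higher and 27 lower and a median of -0.02. E2F2, a transcription factor of that list, stood at 0.24 ± 0.13. STAG2, a cohesin subunit that holds sister chromatids together, read 10638, 11255, 10383 and 11077 against 9152, 9945, 9123 and 8730 (-0.23 ± 0.064). For STAG2 the groups did not overlap either, and the tRNA vector, at 9935 ± 303 (SD, n = 4), lay between them.

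On the higher side the leading genes come from different compartments of the cell. DNAJC11, a protein of the mitochondrial membrane that helps to shape cristae, read 1287, 1261, 1512 and 1324 with the empty vector and 1801, 1689, 1716 and 1826 with the hairpin vector. Its groups did not overlap, the difference was 0.39 ± 0.088, and its 1 other probe set shared the direction. COPE, a subunit of the COPI coat of vesicles between Golgi and endoplasmic reticulum, read 1671, 1606, 2350 and 1867 against 2723, 2484, 3082 and 3589, a fold of 1.59 (0.67 ± 0.17) with no overlap. The tRNA vector arrays for COPE averaged 2432 ± 499, so they were spread over both ranges. PFAS, an enzyme of purine synthesis, read 2418, 1864, 1864 and 1911 against 3431, 3073, 2601 and 2270 (0.49 ± 0.13), where hairpin array 4 lay below empty vector array 1.

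The lists around these genes showed no common shift. Of 25 genes of mitochondrial inner membrane organisation and import 16 were higher and 9 lower, with DNAJC11 the 1 at an unadjusted limma p under 0.05 and APOO, of the MICOS complex, next (0.20 ± 0.098). Of 30 vesicle coat genes 16 were higher and 14 lower, and the COPI subunits ARCN1 and COPZ2 stood at 0.13 ± 0.11 and -0.26 ± 0.16. Of 22 genes of purine and pyrimidine synthesis 11 were higher and 11 lower, with CAD, the first enzyme of pyrimidine synthesis, at 0.16 ± 0.086.

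CHPF2, which takes part in building chondroitin chains, read 499.9, 423.6, 424.5 and 473.7 against 681.8, 691.5, 676.9 and 561.0 (0.52 ± 0.12). The groups did not overlap, hairpin array 4 was the lowest of its group, and the 1 other CHPF2 probe set did not share the direction. CHST3, a sulfotransferase of the same chains, read 201, 376, 401 and 348 against 450, 468, 421 and 435 (0.47 ± 0.19), also with no overlap, and the tRNA vector gave 426 ± 43.7 (SD, n = 4). Without empty vector array 1, the lowest, its difference was 0.24, and its 1 other probe set did not share the direction either. The list of glycosaminoglycan synthesis had 19 of 27 members higher and the largest median of the 22 lists, 0.08. It ran from 0.04 without empty vector array 4 to 0.10 without hairpin array 3, and the same-number medians were 0.07, 0.07, 0.08 and 0.06. These 2 members were the ones with an unadjusted limma p under 0.05, both higher, beside 1.49% of all genes.

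RC3H2, a roquin-family protein that marks messengers for decay, had the largest difference among the genes of the bright group. It read 2536, 2832, 3630 and 2646 with the empty vector and 1419, 1334, 1948 and 2107 with the hairpin vector, with no overlap (-0.79 ± 0.17, a fold of 0.579). However, 1 of its 6 other probe sets shared the direction, and the mean over its probe sets differed by -0.10. Of 36 genes of mRNA decay 20 were higher and 16 lower, and RC3H2 was the 1 with an unadjusted limma p under 0.05, with ZFP36, a binder of AU-rich messengers, next (0.25 ± 0.16). CDH22, a cadherin, read 219.7, 331.6, 186.9 and 182.7 against 90.9, 112, 119 and 97.6 (-1.10 ± 0.25), near the dim end, with the tRNA vector between at 157 ± 38.9 (SD, n = 4). Of 15 measured cadherins and catenins 7 were higher and 8 lower (5 without empty vector array 4), and JUP, a catenin of desmosomes, stood at 0.28 ± 0.14.

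Over all genes, at any signal, the arrays were fully apart for 1.11% higher and 1.22% lower. The 10 largest differences in each direction were taken from genes fully apart with a mean signal of at least 200 in the higher group. A gene could thus enter through 1 group alone. The largest differences among the higher ones were SEMA4G, a semaphorin (1.04 ± 0.31), CRY2, a repressor of the circadian clock (0.88 ± 0.39), SIPA1, a GTPase-activating protein for Rap (0.78 ± 0.27), LHX2, a LIM homeodomain factor (0.69 ± 0.23), IL6R, a receptor chain for interleukin-6 (0.68 ± 0.48), and ORAI3, a calcium channel subunit (0.67 ± 0.18). For SEMA4G and LHX2 the tRNA vector arrays lay close to the hairpin arrays: the hairpin vector differed from the tRNA vector by -0.05 ± 0.31 and 0.03 ± 0.23. For CRY2 that difference was 0.00 ± 0.39, but the single arrays were not close. The tRNA vector arrays read 80.6, 281, 292 and 300, and the hairpin arrays 209, 209, 216 and 208. SIPA1 read 76.0, 177, 140 and 118 with the empty vector and 205, 246, 192 and 202 with the hairpin vector, and 120 ± 22.8 with the tRNA vector. So its hairpin arrays stood above both other groups (0.83 ± 0.27 against the tRNA vector). ITGA2, an integrin subunit for collagen, was higher by 0.64 ± 0.18 and overlapped by 1 array. TRIM62, a ubiquitin ligase (0.63 ± 0.20), MCRIP1 (0.62 ± 0.20) and SCARF2 (0.58 ± 0.18) completed the 10 largest, together with COPE, and 0 of 2 other probe sets of TRIM62 shared its direction. AKT1S1, an inhibitor of mTORC1 signalling, was higher by 0.97 ± 0.29, but its arrays overlapped and its 1 other probe set did not share the direction.

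Of the lower ones CDH22 had the largest difference, followed by IFI27L2, of a family of interferon-inducible proteins (-0.80 ± 0.22), and RC3H2. IFI27L2 read 323, 279, 335 and 330 against 249, 228, 140 and 136, so hairpin arrays 3 and 4 were lower than 1 and 2. NQO1, a quinone reductase of the oxidative stress response, read 306, 266, 270 and 276 against 200.3, 163, 198 and 145 (-0.67 ± 0.20). THAP2, a zinc finger protein, differed by -0.67 ± 0.20 and VLDLR, a lipoprotein receptor, by -0.51 ± 0.25. XAGE-4 (-0.74 ± 0.31), BEST1, a chloride channel (-0.57 ± 0.37), ASTN2 (-0.54 ± 0.19) and ZNF582-DT (-0.52 ± 0.18) were the others of the 10 largest. For ASTN2 and ZNF582-DT the 1 other probe set did not share the direction, and for THAP2 it did. For BEST1 and NQO1 1 of 2 others shared it. BEST1 was lower still with the tRNA vector, at 135 ± 73.6 against 217 ± 64.1 with the hairpin vector (SD, n = 4). The list of interferon response and RNA sensing, which does not hold IFI27L2, had 9 higher and 15 lower of 24 measured genes, with a median of -0.06 and 0 at an unadjusted limma p under 0.05. RIGI, a sensor of double-stranded RNA, stood at 0.28 ± 0.21, ISG15 at -0.18 ± 0.13 and IFITM3 at 0.73 ± 0.36, or 0.38 without empty vector array 3. CGAS, a DNA sensor with a dim probe set, stood at -1.23 ± 0.67, or -0.62 without hairpin array 1.

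The largest folds came from dim probe sets and carried the largest errors. ADAMTSL1, an extracellular matrix protein, read 92.2, 120, 102 and 86.6 with the empty vector and 8.80, 29.6, 14.3 and 31.4 with the hairpin vector (-2.43 ± 0.61). ALDH3A1, an aldehyde dehydrogenase, read 47.1, 135, 100.4 and 57.4 against 20.7, 17.9, 21.5 and 14.9 (-2.07 ± 0.52), and HELZ2, a helicase and nuclear receptor coactivator, differed by -2.05 ± 0.52 in 1 probe set with 0 of 2 others sharing the direction. TMEM59L, a membrane protein, read 22.8, 8.13, 30.1 and 56.2 against 154, 126, 120.5 and 98.9 (2.38 ± 0.63). SLA2, SLC35F3 and PHETA1 were higher by 2.12 ± 0.62, 1.87 ± 0.51 and 1.19 ± 0.36, from means of 28.5, 26.3 and 68.8. The probe set annotated to SLC35E2B and SLC35E2A was higher by 2.16 ± 0.66, with an overlap through empty vector array 3. The groups did not overlap for ADAMTSL1, ALDH3A1, HELZ2 and TMEM59L, but the mean of the lower group lay near or under 43.3, the signal that served as the filter. For HELZ2 the margin was narrow, as hairpin array 2 (107.0) lay just below empty vector array 2 (111.8). Its same-number differences were -2.63, -0.06, -2.50 and -3.01.

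The remaining lists held few single differences. Of 51 ribosomal protein genes 12 were higher and 39 lower, with a median of -0.03 and 0 members at an unadjusted limma p under 0.05. The same-number medians were -0.33, 0.16, 0.00 and 0.06, and without hairpin array 1 the list's median was 0.06, on the other side of 0, and 6 were lower. RPL36 and RPS9, with the smallest p, stood at -0.09 ± 0.067 and 0.06 ± 0.063. Of 22 immediate early and NF-kB genes 15 were lower (median -0.05), among them MYC, a growth-promoting transcription factor, which read 5723, 5266, 5723 and 6051 against 4086, 4836, 5251 and 5543 (-0.22 ± 0.092). Without hairpin array 1, the lowest, the difference of MYC was -0.13. NFKBIA, an inhibitor of NF-kB, was at 0.33 ± 0.21. Of 16 heat shock genes 12 were lower (median -0.05), with HSPA4 at -0.10 ± 0.073, HSPB8 at 0.17 ± 0.12 and 0 at an unadjusted limma p under 0.05. In the integrated stress response 14 of 30 were higher and 16 lower, with its factors ATF4 at -0.04 ± 0.066 and DDIT3 at 0.13 ± 0.18. Of 29 apoptosis regulators 11 were higher and 18 lower: BAD, a pro-apoptotic BCL2 relative, was at 0.46 ± 0.16 and the dim CASP10 at -1.53 ± 0.60, or -0.98 without hairpin array 2.

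**Figure D4:**
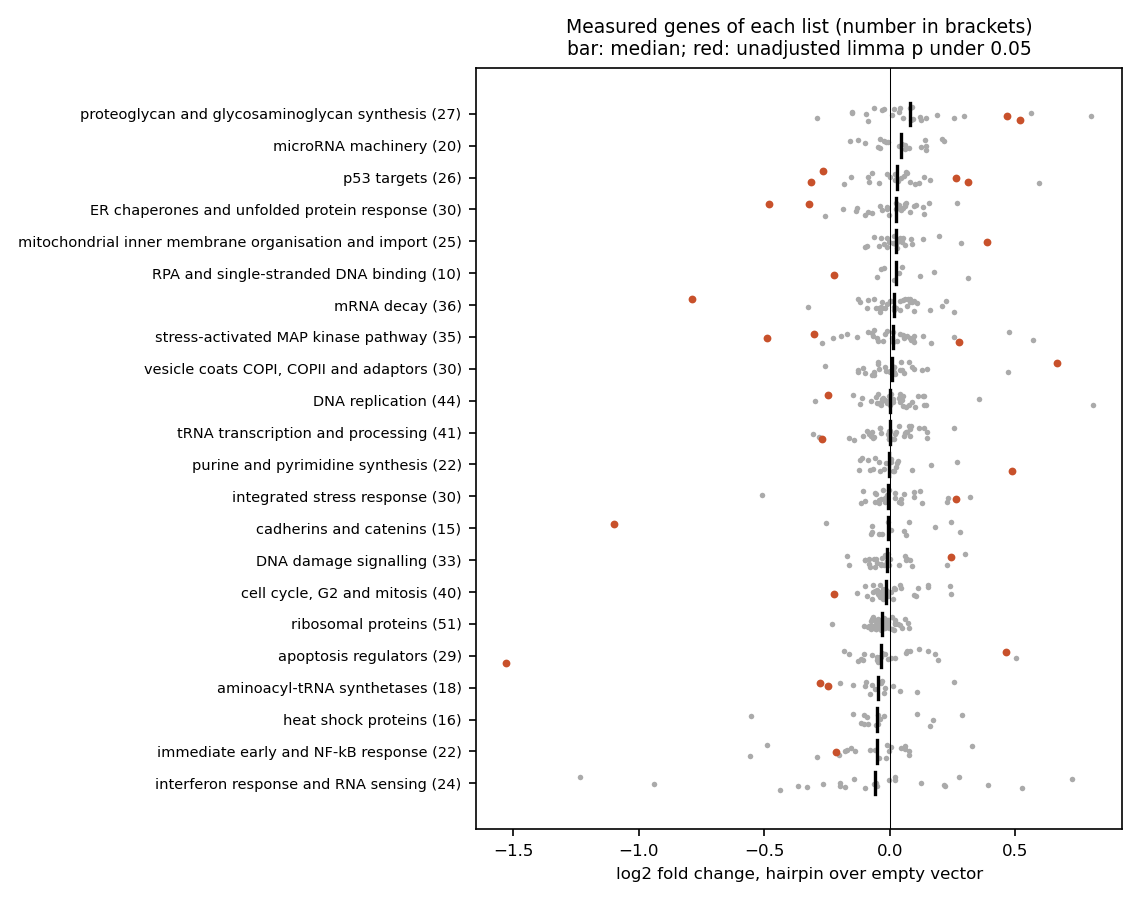
Log2 fold change of hairpin over empty vector (horizontal axis) for the measured genes of the 22 lists (rows, with the number of genes); grey points are genes, red points those with an unadjusted limma p under 0.05, and the black bar is the list's median. All medians lie between -0.06 and 0.08, and no list holds more than 4 red points. Over all genes 1.49% were higher and 1.25% lower at that p.

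Which of these differences also set the hairpin vector apart from the other CU1276 vector was tested in the same fit. Of 32768 probe sets limma called 0 (0%, smallest adjusted p 0.236), while 1271 had an unadjusted p under 0.05 (3.88%). With the replicate number as a block it called 6 (0.0183%), and 3 of these are named above: the brightest probe set of DGCR8 with MIR1306, MAP2K4 and MANF, at an adjusted p of 0.0442 each. For these the hairpin arrays lay apart from all 8 arrays of the other vectors. The other 3 were CIRBP, a cold-inducible RNA-binding protein (0.43), IFNGR1, a chain of the interferon gamma receptor (0.40), and 1 with no gene in the annotation (0.85). They stood at 0.03, 0.04 and 0.22 against the empty vector, so for them the tRNA vector lay lower. With the control RNA level as a block 8 were called (0.0244%), these 6 and the probe sets of PPP2R5C, a regulatory subunit of the phosphatase PP2A (0.52), and SEC61A2, a translocon subunit (0.67), with the hairpin vector at 0.07 and 0.25 against the empty vector. RPA1 did not separate the vectors in its brightest probe set (-0.01 ± 0.082). Its next brightest probe set stood at -0.24 ± 0.13 and the dim one at -0.09 ± 0.25 against the tRNA vector, both with overlapping arrays.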

How the data were processed

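The values used are the authors' deposited MAS5 signal intensity, linear, for 54675 probe sets on 12 arrays. MAS5 is named in the submitters' processing notes, with no version, and the 2% trimmed mean of every deposited column rounded to 500.1. The background correction, array annotation version and genome build are not given in the sources used here. Arrays were grouped by their titles. Probe sets were named from the platform annotation: 41097 had 1 gene symbol, 1801 several and 11777 none, and updating through Entrez identifiers changed 0 symbols, with 42 not in the RefSeq table.

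Signals were taken to log2. The 62 controls and 21845 probe sets under the 40th percentile of mean log2 signal (geometric mean 43.3) were left out, which left 32768, of which 26675 with 1 symbol stood for 13952 genes. In limma 3.58.1 (R 4.3.3), 3 group means were fitted to all 12 arrays, with eBayes and an intensity trend. P-values are two-sided, Benjamini-Hochberg adjusted over all tested probe sets, threshold 0.05. The script was tested on simulated data. RPA1 was also tested by exact permutation. Precision is limited by 4 arrays per group.

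Deviations of same-number hairpin and empty vector arrays from their group means correlated at 0.333, 0.108, 0.124 and 0.134, and the labels' replicate numbers were taken to pair the samples. Hairpin array 4 correlated slightly more with empty vector array 3 (0.148) than with array 4. Hairpin array 3 correlated at 0.0969 with empty vector array 4. The values thus did not tell numbers 3 and 4 apart.

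Named were the RPA subunits, the 12 highest and 12 lowest genes by moderated t, the 10 largest separated genes in each direction, genes with all probe sets past an unadjusted 0.05, the 2 members of smallest p of each of 22 lists, probe sets of several symbols (the 5 of smallest p and those of DGCR8), and probe sets called with a block. Other list members are named for their role in the pathway, after their values were seen. Members and lists were chosen with earlier results of these data known. Alternatives were blocks, other scalings, filters, offsets and variance settings, the mean over a gene's probe sets, and leaving out arrays. A gene that the rule names is not reported here.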

Additional observations from a re-analysis of the deposited data

Results flagged for a closer look

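Of 170 groups of 4 arrays (the empty vector and hairpin arrays of 85 named probe sets), 1 array lay far from the other 3 in 9. Independent normal values would give such a gap in about 1 of 20 groups. These probe sets were partly chosen by their values and some share a gene, so the share to expect here was not tested. RPA3 read 14210 in empty vector array 1, against 10840 to 11336 in the others. CHPF2 read 561.0 in hairpin array 4, against 677 to 691. PFAS read 2418 in empty vector array 1, against 1864 to 1911. CRY2 read 216 in hairpin array 3, against 208 to 209. ABO read 105 in empty vector array 3 in its brighter probe set, against 166 to 175. ZFP36 read 222 in empty vector array 2, against 244 to 248. AURKA read 4506 in empty vector array 3, against 5230 to 5289. The probe set annotated to SLC35E2B and SLC35E2A read 107 in empty vector array 3, against 11.5 to 15.4. That of MIR1282, HYPK and SERF2 read 4296 in empty vector array 3, against 3433 to 3532.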

How the results depend on the processing

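The count of probe sets called between hairpin and empty vector was 0 in all settings run but 1: with the control RNA level (arrays 1, 2, and 3 or 4) as a block it was 3 (0.00916%), namely MAP2K4 and the 2 brightest probe sets of DGCR8 with MIR1306, at a limma adjusted p of 0.0482. With the replicate block it was 0; between the hairpin and tRNA vectors the replicate block gave 6 and the control RNA level block 8, and the replicate block changed no other call. At an unadjusted p under 0.05 there were 789 to 1214 probe sets when single arrays were left out, 1771 with the replicate block and 1803 with the control RNA level block. RPA1 kept its sign in its 2 brighter probe sets, with -0.28 to -0.18 for the brightest when single arrays were left out. Its dim probe set turned to 0.0085 with quantile normalization, 0.022 with median centring and 0.0031 with an offset of 16, and ran from -0.17 to 0.14 without single arrays. RPA2 turned to 0.0011 with median centring and ran from -0.068 to 0.042 without single arrays, and RPA3 from -0.11 to 0.035. With the mean over a gene's probe sets RAD52 turned to -0.054, ORC5 to 0.10, CAD to -0.58, NFKBIA to -0.18 and HSPB8 to -0.0043; the cause was not tested. In all, 77 of 85 named probe sets and 6 of 22 list medians kept their sign in the 21 settings. Precision followed the signal: the median 95% half-width was 1.08 in the dim group and 0.25 in the bright group.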
